A study of Mus musculus with 10 samples.

Results

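Dermal ILCs sorted as Sca1+ were compared with subcutaneous ILCs, across all genes, in skin of adult mice of the B6 strain. Innate lymphoid cells (ILCs) are tissue lymphocytes without rearranged antigen receptors, and Sca1 is the surface protein encoded by Ly6a. The members were the samples whose titles name either population, which gave 5 of the 10 samples of the series, 2 dermal Sca1+ and 3 subcutaneous libraries. The other 5 samples were 2 dermal libraries sorted as CCR6+, a chemokine receptor, and 3 epidermal libraries, and their levels are given beside those of a few genes. No treatment, transgene or genotype is labelled for any of these groups. The title was used for grouping because the cell type label of dermal Sca1+ replicate 2 names dermal ILCs without a marker. The series design speaks of triplicates, while 2 dermal Sca1+ libraries were analysed here. Separate mice, sorts or cultures are not labelled for the replicates, so a p-value here measures only how far these libraries spread, and that spread may be technical.

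Group 2 ILCs (ILC2s), which depend on the transcription factor Gata3, respond to epithelial alarm cytokines such as IL-33, TSLP and IL-18 and secrete IL-5, IL-13 and growth factors. Group 3 ILCs make IL-17 and IL-22. ILC2s are a large part of the ILCs of the dermis and the fat below it in mice. Their surface receptors, such as KLRG1, ICOS and the receptors for IL-33 and IL-18, differ between tissues and between states of activation.

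Levels are given as TPM, the deposited unit of transcript abundance, which takes account of the length of each gene, and always in the order of the replicate numbers, the dermal Sca1+ libraries first. Fold changes are edgeR estimates from the counts, dermal Sca1+ against subcutaneous, so a positive log2 fold change means higher in dermal Sca1+ ILCs. A gene was called when edgeR's quasi-likelihood test gave a Benjamini-Hochberg adjusted p under 0.05 over all 16208 genes tested. All adjusted p-values below are from that test. The totals of expected counts lay between 11627222 and 16409734 in the 5 libraries. Libraries of 1 group differed by more than counting noise (chi-square divided by its degrees of freedom between 40.9 and 84.6). On the first principal component of the 5 libraries, with 49% of the variance, the dermal Sca1+ libraries lay at 121.2 and 112.4 and the subcutaneous ones between -88.5 and -70.6. The second component, with 22.9%, separated the 2 dermal Sca1+ libraries from each other, at -101.1 and 105.1.

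Markers of other cells stood apart between the groups and between libraries, and are given first because they touch the results below. The 20 keratinocyte genes of the stratified epidermis summed to 2629 and 2575 TPM in the dermal Sca1+ libraries and to 234, 127 and 105 TPM in the subcutaneous ones. The 20 genes of simple and glandular epithelium went the other way, with 393 and 367 TPM against 6368, 2536 and 2900 TPM. The 20 macrophage and dendritic cell genes summed to 2545 and 5366 TPM against 12324, 17511 and 9059 TPM. Subcutaneous replicate 2 stood apart within its group, with 19435 genes with a count where the other four libraries had between 16744 and 17983. Its 19 type 1 ILC and NK cell genes summed to 3665 TPM, against 857 and 519 TPM in the other subcutaneous libraries. Il22 and Klrb1c, chosen after their values were seen, were at 105 and 61.5 TPM in it and at no more than 1.22 and 1.87 TPM in the other four. Subcutaneous replicate 1 had the highest sum of the simple epithelial genes and also of the list of immediate early and heat shock genes, at 18508 TPM against at most 11814 TPM in the other four. In bulk RNA of sorted cells, fewer cells of a type and less RNA per cell cannot be told apart.

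**Figure D1:**
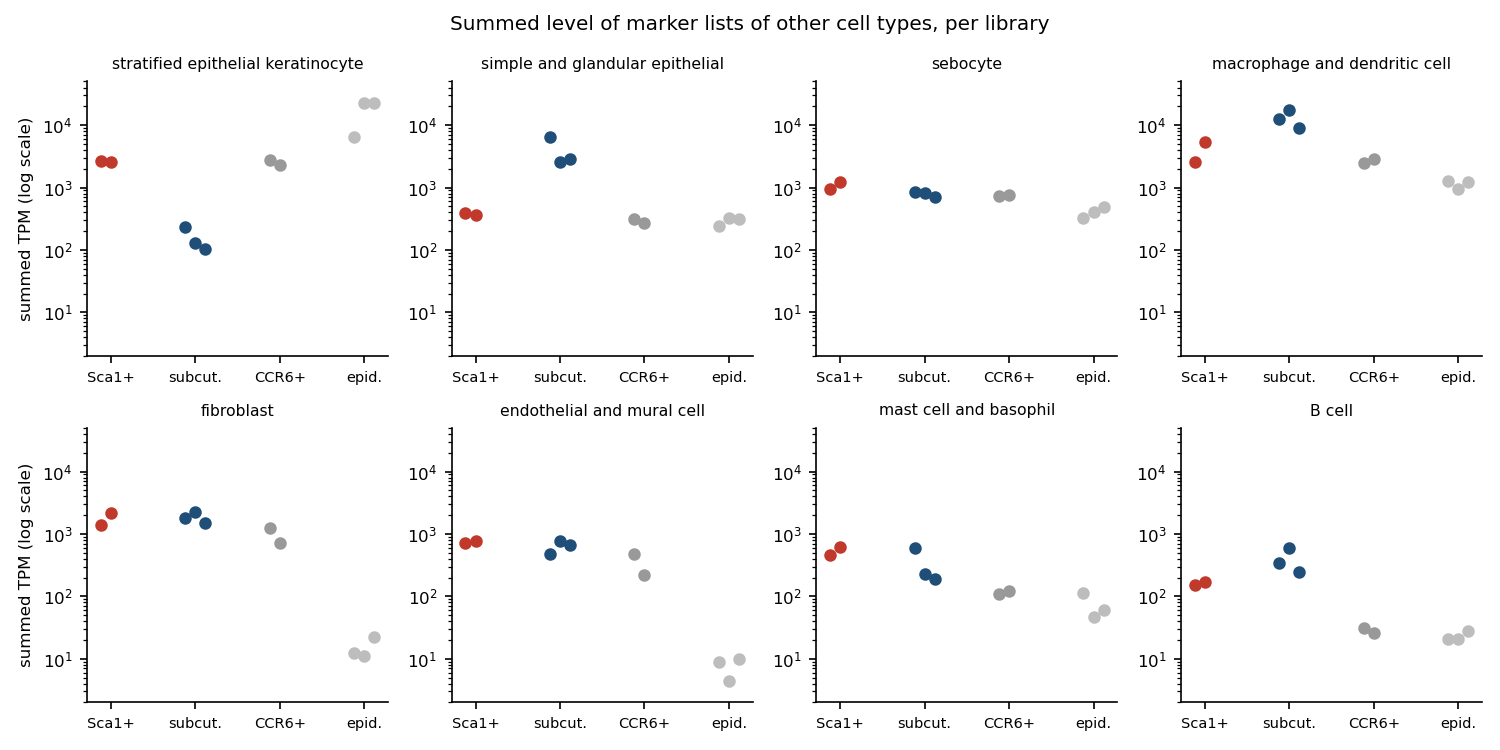
Summed TPM, on a log axis shared by all panels, of 8 marker lists of other cell types. Each point is 1 library of the dermal Sca1+ (red), subcutaneous (blue), dermal CCR6+ and epidermal (grey) groups, and the keratinocyte sums of 2629 and 2575 TPM in the dermal Sca1+ libraries lie above the 234, 127 and 105 TPM of the subcutaneous ones, while the simple epithelial sums are in the reverse order.

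The general markers of ILCs and those of ILC2s were present in both groups. Ptprc, which encodes the leukocyte antigen CD45, was at 305 and 308 TPM in dermal Sca1+ ILCs and at 374, 382 and 285 TPM in subcutaneous ILCs. The IL-7 receptor gene Il7r was at 209 and 247 TPM against 250, 214 and 187 TPM, and the values of the groups overlapped. Id2, the transcriptional regulator that all ILCs need, was at 2586 and 2321 TPM against 2593, 2206 and 1835 TPM. Gata3 was at 848 and 828 TPM against 852, 475 and 545 TPM, and Rora, which ILC2s also need, at 1006 and 1276 TPM against 1030, 713 and 719 TPM. None of these genes was called, with edgeR adjusted p between 0.349 (Rora) and 0.971 (Il7r). The sort marker did not separate the groups either. Ly6a was at 2907 and 3064 TPM in dermal Sca1+ ILCs and at 2744, 2891 and 3530 TPM in subcutaneous ILCs, for a log2 fold change of -0.11 ± 0.33 (SE, edgeR adjusted p = 0.935). In the CCR6+ dermal libraries, Ly6a was at 436 and 214 TPM, and in the epidermal ones between 394 and 536 TPM.

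Of the 16208 genes tested, 357 (2.2%) were called, 196 (1.21%) higher and 161 (0.993%) lower in dermal Sca1+ ILCs. Over all genes tested, the median log2 fold change was -0.03. The TPM ranges of the groups did not overlap for 18.5% of the genes with dermal Sca1+ above and for 15.8% with dermal Sca1+ below, so a gap between 2 libraries and 3 is common in these data. Counts for the gene lists below are to be read beside these shares. At an unadjusted p under 0.05, edgeR gave 2470 genes. The number of calls depended on every library: it fell to 157 without dermal Sca1+ replicate 1, to 219 without dermal Sca1+ replicate 2, and to 188, 218 and 191 without subcutaneous replicates 1, 2 and 3. The split also moved with the method, since DESeq2 called 484 genes higher and 703 lower, limma-trend 356 and 535, the fit with no filter beyond 1 count 523 and 805, and the edgeR fit of the 5 libraries alone 200 and 360.

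**Figure D2:**
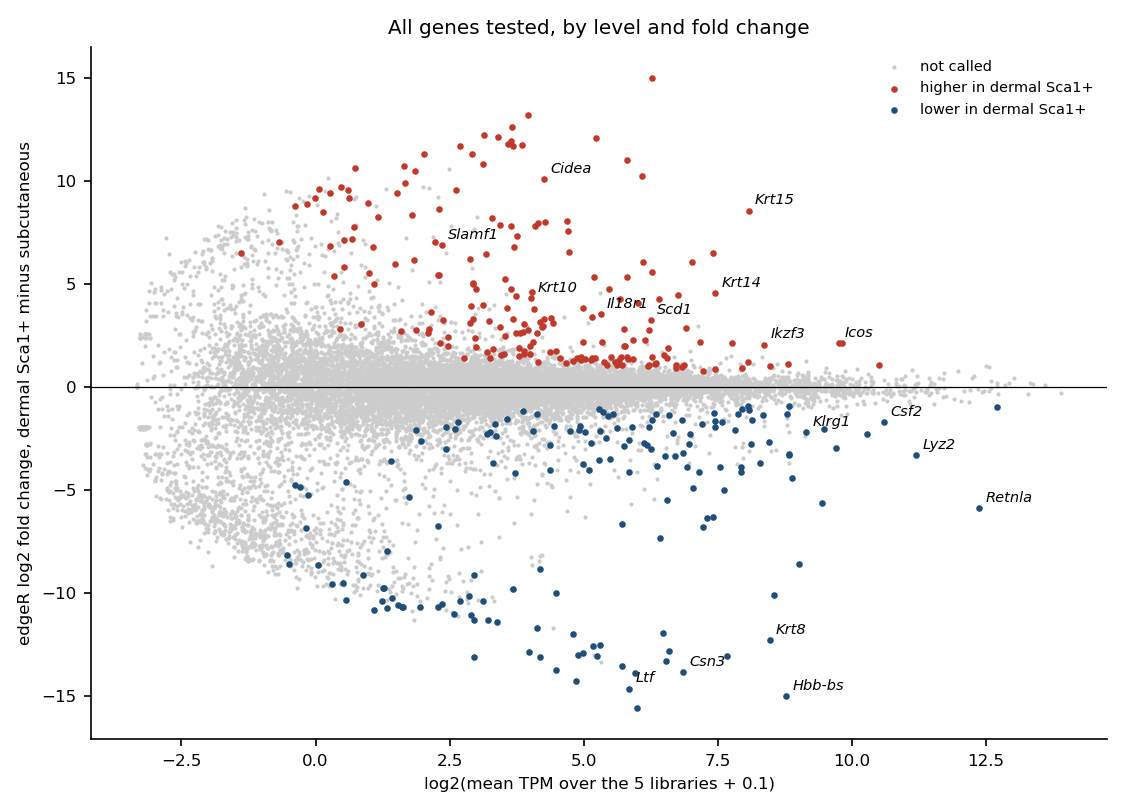
The edgeR log2 fold change (dermal Sca1+ minus subcutaneous) of each of the 16208 genes tested against log2(mean TPM over the 5 libraries + 0.1). The 196 genes called higher are red, the 161 called lower blue and the others grey; the fitted fold changes beyond about 10 belong to genes at or near 0 in 1 group and are no measure of size.

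Among the 25 type 2 ILC genes, 5 were lower and 2 higher in dermal Sca1+ ILCs, with a median log2 fold change of -0.07. The lower ones were Arg1, Klrg1, Csf2, Il2ra and Pparg, and the higher ones Icos and Ptgdr2. Arg1 (chr10:24915221-24927484, minus strand), the arginase that ILC2s use to break down arginine, was at 63.9 and 89 TPM in dermal Sca1+ ILCs and at 654, 691 and 783 TPM in subcutaneous ILCs. The groups lay far apart, and Arg1 was 9.76-fold lower (log2 fold change -3.29 ± 0.24, SE, edgeR adjusted p = 0.000234). Klrg1 (chr6:122270596-122282882, minus strand), an inhibitory receptor that binds cadherins, was at 177 and 202 TPM against 756, 701 and 1002 TPM. It was 4.54-fold lower (log2 fold change -2.18 ± 0.29, SE, edgeR adjusted p = 0.00373), and its edgeR adjusted p was 0.0573 without dermal Sca1+ replicate 1. Both genes were lower still in the other 2 populations, with Arg1 at 9.37 and 9.43 TPM in CCR6+ dermal ILCs and Klrg1 at 3.68 and 5.42 TPM there. Macrophages can express Arg1 too, the macrophage and dendritic cell sums given above were lower in the same dermal Sca1+ libraries, and their part in the Arg1 result was not tested.

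Csf2, which encodes the growth factor GM-CSF, was at 758 and 613 TPM in dermal Sca1+ ILCs and at 2041, 2015 and 2344 TPM in subcutaneous ILCs, 3.26-fold lower (edgeR adjusted p = 0.0392). Il2ra, the high-affinity subunit of the IL-2 receptor, was at 153 and 180 TPM against 378, 273 and 244 TPM (edgeR adjusted p = 0.0224). Pparg, a fatty acid sensing nuclear receptor, was at 15.2 and 11.7 TPM against 56, 46.6 and 66.4 TPM (edgeR adjusted p = 0.0211). No value of these 3 genes overlapped between the groups. The 10 adipocyte genes summed to 322 and 323 TPM against 285, 749 and 531 TPM. Car3, the only called gene of the 7 tested in that list, was lower. Its call was lost without subcutaneous replicate 2 or 3 (edgeR adjusted p = 0.0696 and 0.0748) and without dermal Sca1+ replicate 1. It was also lost with the replicate blocks by title number and by deposited names (edgeR adjusted p = 0.103 and 0.0865). The macrophage and dendritic cell sums given above were lower in the same dermal Sca1+ libraries. The part of adipocytes or of macrophages in the results of Pparg and of Lpl, given below, was not tested. The calls of Csf2, Il2ra and Pparg, and that of Ptgdr2 given below, depended on single libraries. Csf2 was lost without any 1 of the 5 libraries, with edgeR adjusted p between 0.0695 and 0.211. Il2ra was lost without subcutaneous replicate 1 or 2 and without either dermal Sca1+ library (between 0.0564 and 0.152), Il2ra also in limma-trend (0.0893), and Pparg without subcutaneous replicate 1 or 3 and without either dermal Sca1+ library (between 0.0561 and 0.138).

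The main cytokines of ILC2s did not pass the test. Il5 was at 1481 and 1723 TPM in dermal Sca1+ ILCs and at 2814, 2696 and 1995 TPM in subcutaneous ILCs (log2 fold change -0.69 ± 0.30, SE, edgeR adjusted p = 0.31). Il13 was much lower in level in both groups, at 29.1 and 17.3 TPM against 38, 47.1 and 33.6 TPM (edgeR adjusted p = 0.302). Areg, which encodes the epithelial growth factor amphiregulin, was at 838 and 714 TPM against 977, 668 and 834 TPM (edgeR adjusted p = 0.93). Il5 and Il13 lay below the subcutaneous range in both dermal Sca1+ libraries, while Areg overlapped. Of the 24 secreted cytokine and growth factor genes tested, Csf2 and Csf1 were called, both lower. Csf1, the growth factor of macrophages, was at 21.4 and 22.8 TPM against 78.2, 44.1 and 52.3 TPM (edgeR adjusted p = 0.0239). Its call was lost without subcutaneous replicate 1 or 3 and without either dermal Sca1+ library, with edgeR adjusted p between 0.0678 and 0.191, and in limma-trend (0.0662).

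Of the receptors for the alarm cytokines, the one for IL-18 was higher in dermal Sca1+ ILCs. Il18r1 (chr1:40465552-40500854, plus strand), the ligand-binding chain of the IL-18 receptor, was at 87 and 90 TPM in dermal Sca1+ ILCs and at 8.66, 10.9 and 2.08 TPM in subcutaneous ILCs. It was 11.6-fold higher (log2 fold change 3.53 ± 0.45, SE, edgeR adjusted p = 0.00311). The CCR6+ dermal libraries, at 80.8 and 90.7 TPM, and the epidermal libraries, between 87.2 and 128 TPM, had levels like those of the dermal Sca1+ libraries. Il1rl1, the receptor for IL-33, was at 54.6 and 76.9 TPM against 371, 305 and 424 TPM, and at no more than 1.61 TPM in the other 5 libraries. Its log2 fold change of -2.93 ± 1.01 (SE) was not called (edgeR adjusted p = 0.195), although the groups did not overlap. In the edgeR fit of the 5 libraries alone, the same estimate of -2.93 had an adjusted p of 0.00126, and over the 13 alternatives the adjusted p lay between 2.69e-19 and 0.54. Il17rb, the IL-25 receptor chain, was at 12.1 and 27.4 TPM against 10.9, 11.2 and 11.4 TPM (edgeR adjusted p = 0.434). Il18r1 was the only called gene of the 16 IL-1 family and alarmin receptors.

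**Figure D3:**
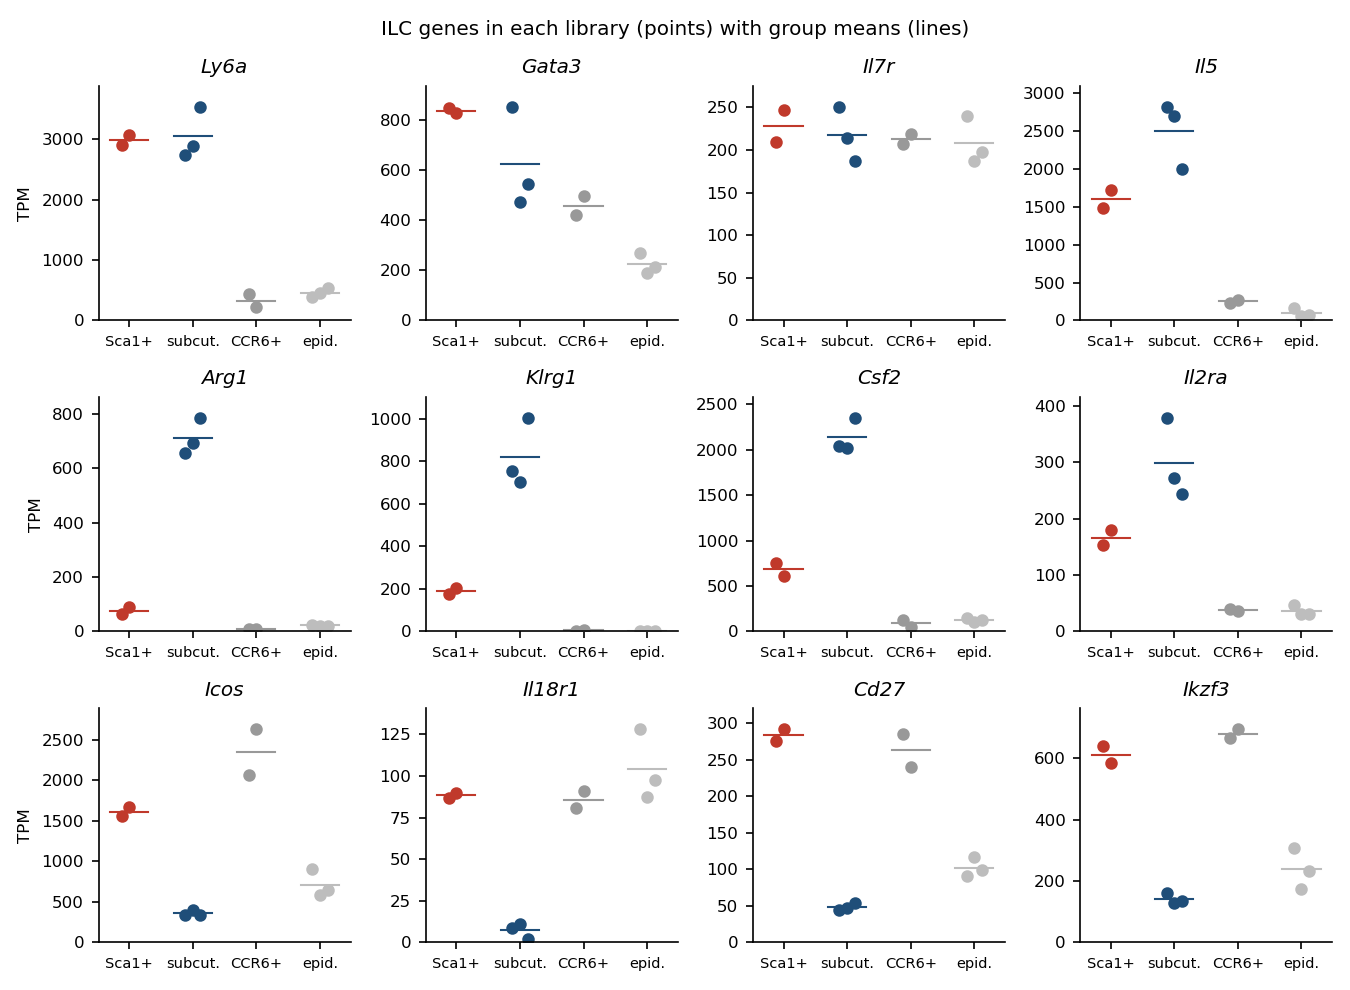
TPM of 12 ILC genes in each library (points) with the group mean (line), on linear axes that start at 0. Arg1, Klrg1, Csf2 and Il2ra lie lower in both dermal Sca1+ libraries (red) than in all 3 subcutaneous ones (blue), Icos, Il18r1, Cd27 and Ikzf3 lie higher, and Ly6a and Il7r overlap; grey points are the dermal CCR6+ and epidermal libraries.

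Several costimulatory receptors were higher in dermal Sca1+ ILCs. Of 20 costimulatory and inhibitory receptor genes tested, 4 were called higher (Icos, Cd27, Slamf1 and Cd28) and 0 lower, and the median log2 fold change was 0.12. Icos (chr1:60977927-61000320, plus strand), the costimulatory receptor that sustains ILC2s through its ligand, was at 1555 and 1668 TPM against 341, 401 and 340 TPM. It was 4.4-fold higher (log2 fold change 2.14 ± 0.20, SE, edgeR adjusted p = 0.000705), and the CCR6+ dermal libraries had 2071 and 2631 TPM. Cd27 (chr6:125232622-125237010, minus strand), a receptor of the TNF receptor family, was at 276 and 292 TPM against 44.3, 47.7 and 54 TPM (4.62-fold higher, edgeR adjusted p = 0.000912). Slamf1, a self-binding receptor of lymphocytes, was at 9.65 and 15.1 TPM against 0, 0.22 and 0.04 TPM (edgeR adjusted p = 0.00141). The groups were far apart for these 3 genes, Slamf1 varied most between the dermal Sca1+ libraries, and the 3 calls were kept in all 13 alternatives. Cd28 was at 88.3 and 69.1 TPM against 36.9, 35.5 and 21.5 TPM (edgeR adjusted p = 0.0318), and leaving out any 1 of the 5 libraries ended that call (between 0.055 and 0.228). Cd28 was also the only called gene of the 20 T cell genes tested. Cd3e, chosen after its values were seen, was at 25.3 and 9.4 TPM against 12.8, 45 and 1.81 TPM, and the whole T cell list summed to 2066 and 2094 TPM against 1358, 1834 and 1840 TPM, with Cd8a, Cd8b1 and Themis at 0 in both dermal Sca1+ libraries. The part of T cells in these results was not tested.

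Among 29 lymphoid transcription factors, Ikzf3 was the only called gene. Ikzf3 (chr11:98464902-98546031, minus strand), which encodes the zinc finger factor Aiolos, was at 640 and 583 TPM in dermal Sca1+ ILCs and at 160, 128 and 136 TPM in subcutaneous ILCs. It was 4.18-fold higher (log2 fold change 2.06 ± 0.19, SE, edgeR adjusted p = 0.000642), and the CCR6+ dermal libraries were at 665 and 694 TPM. Of the 16 TNF superfamily ligands, Tnfsf9, the ligand of the costimulatory receptor 4-1BB, was called, at 229 and 112 TPM against 59.7, 32.4 and 42.8 TPM (edgeR adjusted p = 0.034). The Tnfsf9 call was lost without any 1 of the subcutaneous libraries or without dermal Sca1+ replicate 1, with edgeR adjusted p between 0.0762 and 0.282. In the list of 11 Ly6 family genes tested, Ly6g6c and Ly6g5b were higher. Ly6g6c, a small surface protein gene, was at 120 and 151 TPM against 5.75, 1.56 and 2.48 TPM (edgeR adjusted p = 0.00149), beside between 330 and 1130 TPM in the epidermal libraries. Ly6g5b, another member, was at 86.7 and 85.8 TPM against 19.6, 32.8 and 34.9 TPM (edgeR adjusted p = 0.0377), and its call was lost without any 1 of the 5 libraries (between 0.0559 and 0.181). The keratinocyte sums were higher in the same libraries, and their part in the Ly6 result was not tested.

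Receptors for lipid mediators and neuropeptides moved both ways. Of 20 genes tested in that list, 3 were lower and 1 higher. Alox5, the enzyme that starts leukotriene synthesis, was at 7.01 and 15 TPM in dermal Sca1+ ILCs and at 284, 266 and 404 TPM in subcutaneous ILCs, 32-fold lower (edgeR adjusted p = 0.0136). Myeloid cells also express Alox5, the macrophage sums were lower in the same libraries, and their part in this result was not tested. Ramp1, a subunit of the receptor for the neuropeptide CGRP, was at 67.9 and 92.1 TPM against 177, 217 and 317 TPM (edgeR adjusted p = 0.0322). Vipr2, a receptor for vasoactive intestinal peptide, had no count in the dermal Sca1+ libraries and was at 8.11, 2.96 and 4 TPM in the subcutaneous ones. Against a floor of 3 counts over the dermal Sca1+ group, Vipr2 was at least 125-fold lower (edgeR adjusted p = 0.00144). Ptgdr2, the prostaglandin D2 receptor also known as CRTH2, was higher, at 11.1 and 12.1 TPM against 0, 0.69 and 0.04 TPM (edgeR adjusted p = 0.0301). The call of Vipr2 was kept in all 13 alternatives. Alox5 was lost without either dermal Sca1+ library (0.138 and 0.0713), Ramp1 without either of them and without subcutaneous replicate 2 or 3 (between 0.0689 and 0.223), and Ptgdr2 without either of them and without subcutaneous replicate 3 (between 0.0692 and 0.09).

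The genes of tissue retention and exit gave few calls. Of 18 egress and residency genes, 2 were lower and 0 higher, beside 0.993% lower and 1.21% higher over all genes tested. Klf2, the factor that drives the genes of lymphocyte exit, was one of them, at 67.3 and 53.6 TPM against 254, 194 and 169 TPM, 3.48-fold lower (edgeR adjusted p = 0.00586, and 0.0607 without dermal Sca1+ replicate 2). S1pr1, the exit receptor itself, was at 64 and 66.5 TPM against 30.1, 62.6 and 28.8 TPM (edgeR adjusted p = 0.537), with both dermal Sca1+ values just above the subcutaneous range. Of 20 integrin and adhesion genes, Cd44, a receptor for hyaluronan, was higher, at 417 and 387 TPM against 185, 199 and 145 TPM (edgeR adjusted p = 0.00802, and 0.0833 without dermal Sca1+ replicate 1). Cd69, a marker of residency and activation, was at 570 and 503 TPM against 499, 321 and 415 TPM (edgeR adjusted p = 0.666).

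Of the named genes that were not called, 5 were called by edgeR once subcutaneous replicate 2 was left out: Itgae, Ccr6, Klrk1, Nkg7 and the cell cycle gene Pcna, given below. Itgae, the integrin chain that binds E-cadherin on epithelium, was at 92 and 93.8 TPM in dermal Sca1+ ILCs and at 0.58, 10.4 and 0.14 TPM in subcutaneous ILCs. Ccr6 was at 41.8 and 104 TPM against 0, 21.8 and 0.13 TPM. Neither was called with all libraries (edgeR adjusted p = 0.0961 for Itgae and 0.297 for Ccr6). Without subcutaneous replicate 2, the log2 fold change was 8.01 for Itgae (edgeR adjusted p = 0.00147) and 9.78 for Ccr6 (edgeR adjusted p = 0.000935). Klrk1, which encodes the activating receptor NKG2D, was at 345 and 240 TPM against 5.65, 107 and 2.42 TPM, and Nkg7, a gene of cytotoxic granules, at 1089 and 718 TPM against 83.3, 904 and 42.3 TPM. Their log2 fold changes were 2.94 for Klrk1 (edgeR adjusted p = 0.251) and 1.26 for Nkg7 (edgeR adjusted p = 0.598). Without that library they were 6.42 (edgeR adjusted p = 0.00021) and 3.78 (edgeR adjusted p = 0.00114). In the CCR6+ dermal libraries Itgae was at 368 and 474 TPM and Ccr6 at 768 and 919 TPM. In the list of type 1 ILC and NK cell genes, of which 16 were tested, Ccl5 was called, at 28 and 18.9 TPM against 176, 874 and 122 TPM (edgeR adjusted p = 0.0396, and 0.0684 without subcutaneous replicate 2). The Ccl5 call was also lost without either dermal Sca1+ library (0.185 and 0.198) and with the 5 libraries alone (0.074). With all libraries, limma-trend called Itgae (0.00198), Ccr6 (0.0171) and Klrk1 (0.0205), and the edgeR fit with no filter called all 4. Over the 13 alternatives, the adjusted p reached 0.605 for Ccr6, 0.23 for Itgae, 0.515 for Klrk1 and 0.842 for Nkg7.

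Of 22 type 3 ILC genes, 3 were lower and 0 higher in dermal Sca1+ ILCs, and none of the 3 was a cytokine. Tmem176b (chr6:48833818-48841496, minus strand) and its neighbour Tmem176a encode membrane proteins that are abundant in type 3 lymphocytes and in myeloid cells. Tmem176b was at 301 and 494 TPM against 1588, 1793 and 2066 TPM, 4.93-fold lower (log2 fold change -2.30 ± 0.26, SE, edgeR adjusted p = 0.00144). Tmem176a was at 229 and 294 TPM against 833, 1007 and 1185 TPM (edgeR adjusted p = 0.00314, and 0.0505 without dermal Sca1+ replicate 1). Nrp1, a coreceptor for semaphorins and growth factors, was at 9.61 and 7.32 TPM against 29, 35.3 and 26.6 TPM (edgeR adjusted p = 0.00813, and 0.065 without dermal Sca1+ replicate 2). The summed macrophage and dendritic cell genes were lower in the same libraries, as given above, and their part in these 3 results was not tested.

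Of 24 chemokine ligand genes tested, 5 were lower and 1 was higher in dermal Sca1+ ILCs, with a median log2 fold change of -2.18. The 5 were Ccl5, Ccl6, Ccl9, Cxcl3 and Cxcl13. Ccl6, a chemokine of myeloid cells, was at 20 and 26.5 TPM against 747, 1759 and 939 TPM, 48.9-fold lower (edgeR adjusted p = 0.00984). Ccl9, also myeloid, was at 6.86 and 15.7 TPM against 160, 295 and 133 TPM (edgeR adjusted p = 0.00602, and 0.0627 without dermal Sca1+ replicate 1). The Ccl6 call was lost without either dermal Sca1+ library (0.116 and 0.0725). Cxcl14, which epithelia secrete constantly, was the higher one, at 38 and 33.2 TPM against 3.04, 7.2 and 5.96 TPM (edgeR adjusted p = 0.00901, and 0.0606 without dermal Sca1+ replicate 1). Among 20 chemokine receptors, Ackr4 and Gpr183 were higher and Ccr1 and Ccr9 lower. Ackr4, a scavenging receptor for CCL19 and CCL21, was at 9.09 and 6.12 TPM in dermal Sca1+ ILCs, with no count in subcutaneous libraries. It was at least 201-fold higher against a floor of 3 counts over the subcutaneous group (edgeR adjusted p = 0.00153). Ackr4 was at 9.4 and 8.94 TPM in CCR6+ dermal ILCs and between 5.89 and 15.5 TPM in epidermal ones. The keratinocyte sums given above were higher in the dermal Sca1+ libraries, and their part in the Ackr4 and Cxcl14 results was not tested. Ccr8, a chemokine receptor of skin lymphocytes and chosen after its values were seen, was at 2514 and 2541 TPM against 1763, 1459 and 1863 TPM (edgeR adjusted p = 0.196). The number of chemokine ligands called lower was 0 without dermal Sca1+ replicate 1, 1 without dermal Sca1+ replicate 2, and 3, 2 and 3 without subcutaneous replicates 1, 2 and 3. The calls of Cxcl3, Cxcl13, Gpr183 and Ccr1 were lost without any 1 of the 5 libraries, and that of Ccr9 without any but subcutaneous replicate 3, with edgeR adjusted p between 0.0563 and 0.33.

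The summed macrophage and dendritic cell genes, given above, were lower in the same libraries, and their part in the chemokine result was not tested. Of 20 macrophage and dendritic cell genes, 3 were called lower, 0 higher and 17 not called. Below the subcutaneous range in both dermal Sca1+ libraries lay 14 of them, and the median log2 fold change was -3.03. The shares over all genes tested were 0.993% called lower and 15.8% below that range. Lyz2, the lysozyme of myeloid cells, was at 286 and 490 TPM against 3520, 4970 and 2491 TPM, 9.91-fold lower (log2 fold change -3.31 ± 0.41, SE, edgeR adjusted p = 0.00254). Cd68, a lysosomal protein gene of macrophages, was at 14.5 and 24.9 TPM against 150, 248 and 141 TPM (edgeR adjusted p = 0.0134), and its call was lost without either dermal Sca1+ library (0.126 and 0.0524). Retnla, which alternatively activated macrophages secrete, was at 172 and 137 TPM against 6691, 11754 and 7644 TPM, and was the most abundant gene named lower (edgeR adjusted p = 0.034). The Retnla call was lost without any 1 of the 5 libraries, with edgeR adjusted p between 0.0656 and 0.203. Folr2, Fcna and Cd209f, genes of tissue macrophages, were at no more than 4.88 TPM in dermal Sca1+ ILCs and at 122 TPM or more in subcutaneous ILCs. Folr2 and Cd209f lost the call without either dermal Sca1+ library (between 0.0557 and 0.129), and Fcna without replicate 1 of them (0.0682). Cd207, the defining gene of Langerhans cells, had no count in any of the 5 libraries. Of 8 B cell genes tested, Igkc and Cd79a were called lower and 6 were not called. Neither Igkc nor Cd79a had a count in the dermal Sca1+ libraries. Of all 10 genes of the list, 6 were at 0 in both of these libraries. The whole list summed to 154 and 170 TPM in them, against 344, 603 and 247 TPM in the subcutaneous ones. The Igkc call was lost without dermal Sca1+ replicate 1 (0.0662), and that of Cd79a without any 1 of the 5 libraries (between 0.103 and 0.173) and with DESeq2 (0.204).

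Keratins differed in both directions. Of 20 stratified epithelial keratinocyte genes, 13 were higher and 0 lower in dermal Sca1+ ILCs, with a median log2 fold change of 4.29. Krt15 (chr11:100131758-100135928, minus strand), a keratin of basal and hair follicle stem cells, was at 611 and 732 TPM against 3.09, 2.39 and 0.65 TPM, 376-fold higher (edgeR adjusted p = 0.00016). Krt14, the keratin of the basal layer, was at 524 and 300 TPM against 15.6, 16.9 and 18 TPM (edgeR adjusted p = 0.00144), and Krt10, that of the layers above it, at 34.8 and 40.6 TPM against 1.94, 1.49 and 1.98 TPM (edgeR adjusted p = 2.66e-05). Krt79, a keratin of the follicle funnel, was at 47 and 36.9 TPM against 0.37, 0 and 0.18 TPM (edgeR adjusted p = 0.000634). In the CCR6+ dermal libraries Krt15 was at 606 and 476 TPM, and in the epidermal libraries between 413 and 994 TPM. Lor, Flg and Ivl, genes of the outermost layers chosen after their values were seen, were at no more than 0.5 TPM in any of the 5 libraries. Other genes of the list were not near 0 in dermal Sca1+ ILCs. Krt1 was at 21 and 40.4 TPM against 0, 0.17 and 0.19 TPM, and Calm4 at 63.2 and 64.2 TPM against 0, 0.48 and 0.13 TPM. The number of keratinocyte genes called was between 11 and 13 when any 1 of the 5 libraries was left out. Called genes outside the list with the largest changes are also known from epidermis and follicle, among them Fgfbp1, Psapl1, Capns2 and the defensin gene Defb6. Defb6 had no count in the subcutaneous libraries and was at 179 and 161 TPM in the dermal Sca1+ ones. It was at least 139-fold higher (edgeR adjusted p = 0.00198).

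The genes of simple and glandular epithelium went the other way, with 12 of 19 tested called lower and 0 higher. The median log2 fold change was -8.57, or -6.65 with the genes at 0 in 1 group set to their bound. Krt8 (chr15:101996698-102004482, minus strand), a keratin of simple epithelia, was at 0.05 and 0.2 TPM in dermal Sca1+ ILCs and at 1162, 260 and 349 TPM in subcutaneous ILCs (edgeR adjusted p = 0.00132). Krt18, its partner, was at 0.06 and 1.21 TPM against 1104, 312 and 442 TPM (edgeR adjusted p = 0.0025). Ltf, which encodes the secreted protein lactoferrin, and Csn3, a milk casein gene, had no count in the dermal Sca1+ libraries. Ltf was at 103, 86.9 and 97.6 TPM in the subcutaneous libraries, and at least 1885-fold lower in dermal Sca1+ ILCs (edgeR adjusted p = 0.000361). Csn3 was at 273, 180 and 126 TPM and at least 1093-fold lower (edgeR adjusted p = 0.00132). Of the list, 8 of 20 genes were at 0 in both dermal Sca1+ libraries, and Wap, another milk protein gene, was at 0 in all 5. The number called was between 8 and 11 when any 1 library was left out.

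Sebocyte genes, which make the lipids of the sebaceous gland, gave 5 higher and 1 lower of 15, with a median log2 fold change of 1.71. Scd1, a fatty acid desaturase, was at 117 and 213 TPM in dermal Sca1+ ILCs against 18.2, 20.2 and 11.1 TPM, 9.58-fold higher (log2 fold change 3.26 ± 0.45, SE, edgeR adjusted p = 0.0043). Elovl4, an elongase of very long fatty acids, was at 49.5 and 79.5 TPM against 1.01, 0 and 0 TPM (edgeR adjusted p = 0.00586). Far2, a fatty acyl reductase, was at 24.9 and 33.9 TPM against 1.13, 0.63 and 1.44 TPM (edgeR adjusted p = 0.00802). Elovl3 was at 31.2 and 31.1 TPM and had no count in the subcutaneous libraries (edgeR adjusted p = 0.036), and its call was lost without any 1 of the 5 libraries (between 0.0755 and 0.1). The lower gene was Pparg, given above, which ILC2s also express. Fabp5, a fatty acid binding protein of epidermis and of lymphocytes, was at 359 and 462 TPM against 83.2, 97.3 and 84.4 TPM, 4.45-fold higher (edgeR adjusted p = 0.00575). In the same list of arginine and lipid uptake genes, Lpl, which frees fatty acids from lipoproteins, was lower, at 11.5 and 13.5 TPM against 92.1, 89.3 and 62.4 TPM (edgeR adjusted p = 0.0377), a call lost without any 1 of the 5 libraries (between 0.0844 and 0.217).

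**Figure D4:**
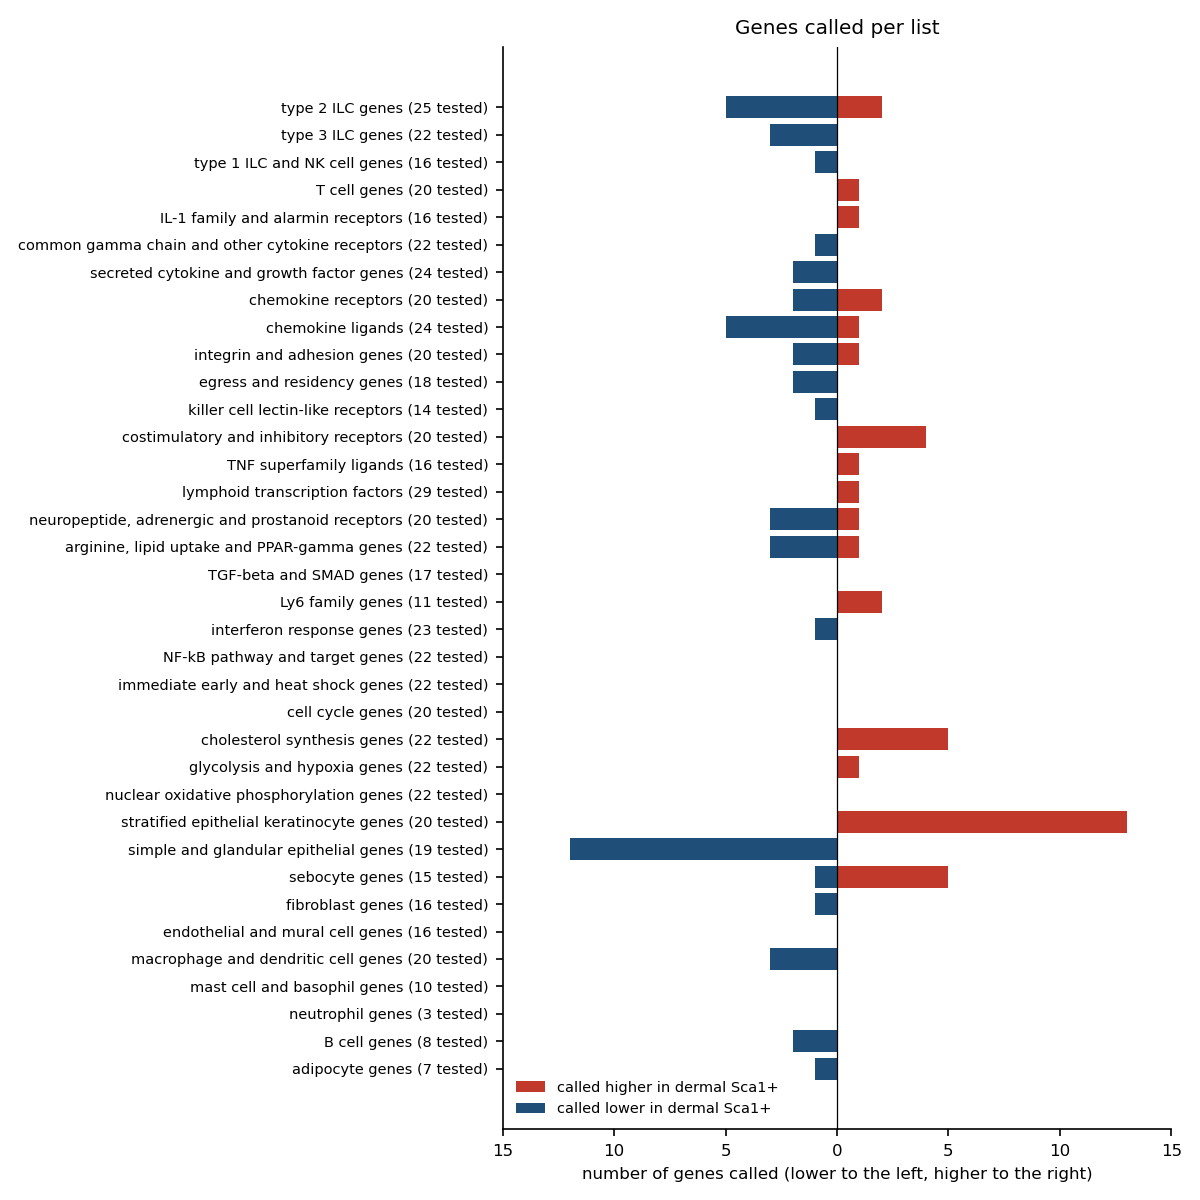
Number of genes called higher (red, to the right) or lower (blue, to the left) in dermal Sca1+ than in subcutaneous ILCs for each of the 36 gene lists, with the number of genes tested in brackets. The stratified epithelial list has 13 higher, the simple epithelial list 12 lower, and the cholesterol synthesis list 5 higher and 0 lower; some genes are in more than 1 list.

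Part of the cholesterol synthesis pathway was higher in dermal Sca1+ ILCs. Of 22 genes, 5 were called higher and 0 lower, and 15 lay above the subcutaneous range in both dermal Sca1+ libraries. Among all genes tested, 1.21% were called higher and 18.5% lay above that range. The median log2 fold change of the list was 0.74. Cells make cholesterol from acetyl-CoA through mevalonate, farnesyl diphosphate and lanosterol, and when sterols are scarce the factor SREBP2 binds sterol elements in the promoters of these genes, together with the CCAAT-binding factor NF-Y. The 4 called genes described here stand at the start, the middle and the later part of the pathway. Hmgcs1, which makes the precursor of mevalonate, was at 44.8 and 52.6 TPM against 21.3, 17.8 and 17.8 TPM (log2 fold change 1.31 ± 0.26, SE, edgeR adjusted p = 0.0301). Mvd, which makes the isoprene unit, was at 28.1 and 17.8 TPM against 8.05, 7.3 and 7.73 TPM (edgeR adjusted p = 0.0254), and Fdps, which joins these units, at 127 and 177 TPM against 36.6, 49.7 and 61 TPM (edgeR adjusted p = 0.0338). Msmo1, which removes methyl groups from lanosterol products, was at 67.8 and 131 TPM against 21.8, 25.2 and 24.9 TPM (log2 fold change 1.98 ± 0.33, SE, edgeR adjusted p = 0.0125). None of the 4 overlapped between the groups, and the folds lay between 2.48 and 3.95.

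These calls were not all secure. Over the whole list, 1 gene was called without dermal Sca1+ replicate 1 and 1 without subcutaneous replicate 1, and 2, 2 and 3 genes without dermal Sca1+ replicate 2, subcutaneous replicate 2 and subcutaneous replicate 3. Hmgcs1 lost its call without any 1 of the 5 libraries, Mvd without any but dermal Sca1+ replicate 2, Fdps without any but subcutaneous replicate 3, and Msmo1 without dermal Sca1+ replicate 2 or subcutaneous replicate 1. The edgeR adjusted p of these lost calls lay between 0.0563 and 0.223. Insig1, which retains SREBP2, was not called and was chosen after its values were seen, at 38.6 and 37.5 TPM against 20.4, 20.2 and 22.2 TPM (edgeR adjusted p = 0.0711). Mvk, one of 3 genes with a negative log2 fold change, was at 11.5 and 15 TPM against 18.4, 19.6 and 16.7 TPM (edgeR adjusted p = 0.506). The summed level of the list was 859 and 1000 TPM against 584, 550 and 565 TPM, 1003 and 1262 TPM in CCR6+ dermal ILCs and between 1359 and 1538 TPM in epidermal ILCs. The keratinocyte sums given above were higher in the same dermal Sca1+ libraries. The sebocyte list summed to 959 and 1207 TPM in them and to 850, 802 and 692 TPM in the subcutaneous ones. The part of keratinocytes and sebocytes in the sterol result was not tested.

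**Figure D5:**
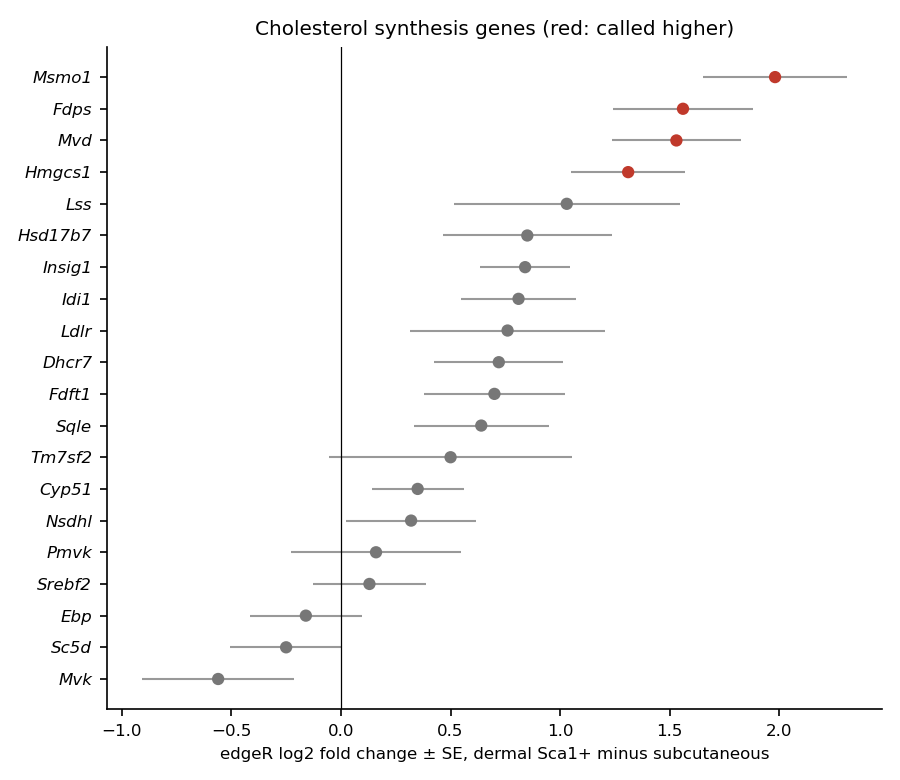
The edgeR log2 fold change (dermal Sca1+ minus subcutaneous) of 20 cholesterol synthesis genes, with bars of 1 SE. Msmo1, Fdps, Mvd and Hmgcs1 (red) were called higher, and 3 genes lie below 0.

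The promoters of the called sterol genes are shown because these genes lay higher together. The 250 bases before the RefSeq start of Hmgcs1 (chr13:119690101-119690350, plus strand), Msmo1 (chr8:64733579-64733828, minus strand) and Mvd (chr8:122443423-122443672, minus strand), from build GRCm38.p6, read 5′ to 3′ along the gene with the motif matches in capitals:
Hmgcs1: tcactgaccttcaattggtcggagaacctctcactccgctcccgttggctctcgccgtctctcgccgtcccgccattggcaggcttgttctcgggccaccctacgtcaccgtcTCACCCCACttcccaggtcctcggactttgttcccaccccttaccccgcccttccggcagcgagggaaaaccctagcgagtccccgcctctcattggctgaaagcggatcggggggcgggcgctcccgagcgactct
Msmo1: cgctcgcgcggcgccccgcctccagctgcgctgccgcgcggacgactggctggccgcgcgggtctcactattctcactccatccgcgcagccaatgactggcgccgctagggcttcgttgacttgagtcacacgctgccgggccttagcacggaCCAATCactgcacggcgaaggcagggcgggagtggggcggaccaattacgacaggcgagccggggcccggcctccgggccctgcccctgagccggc
Mvd: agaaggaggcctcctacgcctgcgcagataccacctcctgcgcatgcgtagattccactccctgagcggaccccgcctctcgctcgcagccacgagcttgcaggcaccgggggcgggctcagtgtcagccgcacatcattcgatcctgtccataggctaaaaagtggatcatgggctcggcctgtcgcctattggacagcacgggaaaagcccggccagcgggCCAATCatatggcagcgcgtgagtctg
The motifs searched, on both strands, were the core of the sterol element, TCACNCCAC, and the CCAAT box followed by C, CCAATC. None of the 3 printed windows holds a match to both. CCAAT without that C was not searched for. It or its reverse complement, ATTGG, stands unmarked in each of the 3 windows, also in that of Hmgcs1. Capitals in Hmgcs1 mark the sterol element core, which ends 129 bases before the start, and capitals in Msmo1 and Mvd mark CCAATC, which ends 91 and 22 bases before it. RefSeq windows were found for 16 of the 22 genes, 19 windows in all. CCAATC stood in 12 of the 19, and in 14.6% of all 32851 windows of the same length. TCACNCCAC stood in 1 of the 19, that of Hmgcs1, and in 1.05% of all windows. A match is a description of the letters, and binding was not measured.

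Other metabolic lists gave little. Of 22 glycolysis and hypoxia genes, Egln3 was the only called gene, although 10 lay above the subcutaneous range in both dermal Sca1+ libraries. The share above that range over all genes tested was 18.5%. Egln3, the oxygen sensor that marks HIF for degradation and is itself a HIF target, was at 38.4 and 53.2 TPM against 4.31, 6.53 and 4.09 TPM, 8.76-fold higher (log2 fold change 3.13 ± 0.29, SE, edgeR adjusted p = 0.000705). Its level in CCR6+ dermal ILCs was 91.9 and 113 TPM. Ldha, the enzyme that makes lactate, was at 3827 and 4079 TPM against 2817, 2848 and 3077 TPM (edgeR adjusted p = 0.373). Of 22 nuclear oxidative phosphorylation genes and of 20 cell cycle genes, 0 were called by edgeR. Pcna, the sliding clamp of DNA replication, was at 190 and 188 TPM against 81.4, 126 and 75.3 TPM (log2 fold change 0.99, edgeR adjusted p = 0.0781). It was called higher without subcutaneous replicate 2 (0.0171), by DESeq2 (0.01), by limma-trend (0.0163) and with no filter (0.0126). Among the most abundant called genes, Capg, an actin capping protein, was at 1761 and 1678 TPM against 314, 375 and 387 TPM, 4.39-fold higher (edgeR adjusted p = 0.000705). Actg1, a cytoplasmic actin, was at 4572 and 4010 TPM against 8625, 8256 and 7800 TPM (edgeR adjusted p = 0.0223). Its call ended without subcutaneous replicate 2 or 3 and without either dermal Sca1+ library (between 0.0705 and 0.179).

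Of 23 interferon response genes, 15 lay below the subcutaneous range in both dermal Sca1+ libraries and 0 above it, but 1 was called. Over all genes tested, 15.8% lay below that range, 18.5% above it, and 0.993% were called lower. Irf7, the factor that amplifies type I interferon, was at 16.2 and 31.2 TPM against 84.6, 87.4 and 79.8 TPM, 3.8-fold lower (edgeR adjusted p = 0.0262). The median log2 fold change of the list was -1.41. The macrophage sums were lower in the same libraries, and their part in this list was not tested. The Irf7 call was lost without any 1 of the subcutaneous libraries or without dermal Sca1+ replicate 1 (between 0.0589 and 0.188). Ifitm3, a membrane protein that blocks virus entry, was at 588 and 480 TPM against 1010, 1596 and 1116 TPM (edgeR adjusted p = 0.216), and was called lower by DESeq2 (0.0485) and with no filter (0.000355). Of the 22 NF-kB pathway and target genes, the 22 immediate early and heat shock genes and the 17 TGF-beta and SMAD genes, 0 were called by edgeR. Nfkbia, the inhibitor that NF-kB itself induces, was at 2937 and 3370 TPM against 3760, 2466 and 3307 TPM (edgeR adjusted p = 0.968). Fibroblast genes gave 1 call of 16, Fn1, at 5.1 and 9.18 TPM against 112, 61.5 and 37.1 TPM (edgeR adjusted p = 0.0133), a result lost without either dermal Sca1+ library (0.128 and 0.0681). The fibroblast list summed to 1398 and 2137 TPM against 1831, 2278 and 1492 TPM, so its sums overlapped between the groups. The macrophage sums were lower in the same libraries, and their part in the Fn1 result was not tested. Of 16 endothelial and mural cell genes, 0 were called.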

How the data were processed

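RNA of 10 libraries of sorted mouse skin ILCs was measured, 5 of which are compared here. Per the labels' protocols, RNA was column-purified and libraries were made with a low-input cDNA kit and Nextera XT, which do not mark strand, so antisense and overlapping genes cannot be told apart. The tools named in the submitters' processing notes are Trimmomatic, STAR and RSEM, and the build is mm10. Versions, settings and annotation: not given in the sources used here. The deposited expected counts per gene are RSEM's estimates, per the file headers, and were rounded to whole numbers. The deposited TPM values, also from RSEM per the file headers, give the levels. RSEM may have divided reads wrongly between near-identical keratin, Ly6, Gimap or haemoglobin genes. Of 47643 gene IDs, 47224 carried a symbol and were placed on GENCODE M21, which gave the coordinates.

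Genes were filtered by edgeR's filterByExpr (count minimum 10), normalized by TMM and fitted with edgeR 4.0.16 (R 4.3.3) in 1 quasi-likelihood model of all 10 libraries and 4 groups, without a block, two-sided. The biological coefficient of variation was 0.62. The SE is the absolute log2 fold change over the square root of F. The scripts were tested on simulated counts. With 0 counts in a group, folds are bounds against 3 counts over the group. The totals of 11627222 to 16409734 in the 5 libraries compared limit these bounds, which cover counting error only. The 13 alternatives were RLE size factors, DESeq2 1.42.0, limma-trend (limma 3.58.1) on log2(TPM + 1), no filter beyond 1 count, 5 CPM in 2 libraries, the 5 libraries alone, 2 replicate blocks and each library left out. Where that left 1 dermal Sca1+ library, it was assumed to vary like the other groups.

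The comparison and the 36 gene lists were chosen with earlier results of these data known. Genes were named by a rule. Per direction, among called genes without overlap and with a mean of at least 20 TPM in the higher group, it took the 10 largest changes with more than 3 counts in the lower group, the 5 highest levels and the 3 highest with 3 counts or fewer. To these it added fixed ILC genes and, per list, up to 6 called members or, with fewer than 2 calls, the 2 most abundant. Predicted, mitochondrial, ribosomal protein and receptor segment genes were left out of the ranks, and not every gene so named is described. A few genes of the lists count in them and are otherwise not reported here.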

Additional observations from a re-analysis of the deposited data

How the results depend on the processing

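No called gene changed sign under any of the 13 alternatives, and 46 of the 104 called genes of the named set were called under each of them. Of the 357 calls, 354 were shared with RLE size factors, 350 with DESeq2, 314 with limma-trend, 352 with no filter beyond 1 count, 352 with the filter of 5 CPM and 299 with the fit of the 5 libraries alone. Without 1 library, between 128 and 190 were shared, which rests on fewer samples. The genes called higher numbered 484 with DESeq2, 356 with limma-trend and 523 with no filter beyond 1 count, against 196. Those called lower numbered 703, 535 and 805, and 360 with the 5 libraries alone, against 161. Without 1 library, between 98 and 138 were higher and between 59 and 106 lower. With the replicate block by title number, 115 genes were higher and 88 lower. With the block by the runs of numbers in the deposited names, 158 were higher and 101 lower. The correlations of deviations from the group means lay between -0.021 and 0.021. With 2 dermal Sca1+ libraries those deviations mirror each other, so these values cannot show or exclude a pairing. Only 2 numbers are shared, and a mouse or sort common to samples with the same number is not labelled. The cause of the shifts in the number of calls was not tested.

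Il1rl1 was called by limma-trend, with no filter and with the 5 libraries alone (adjusted p = 0.00612, 2.69e-19 and 0.00126). Ccr6, Itgae and Klrk1 were called by limma-trend and with no filter, and Nkg7 with no filter, a fit whose p-values were smaller than in any other setting for these 5 genes. Other gains among the named genes were Pcna and Ifitm3, given above, Tnfaip3 with no filter (0.0389), Retnlg with DESeq2, limma-trend, no filter and the 5 libraries alone (between 3.27e-05 and 0.0447) and S100a8 with limma-trend (0.0381). With the 5 libraries alone, the calls of Ptgdr2 (0.0809), Ccl5 (0.074), Cd28 (0.0509), Gpr183 (0.0738), Ly6g5b (0.079), Mvd (0.0825) and Psat1 (0.0697) were lost. Gpr183 was also lost with RLE size factors (0.0511) and with no filter (0.0704).

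Genes that were not called and lie near 0 changed sign. With the block by title number, the log2 fold change was 0.05 for Ly6a, 0.00 for Il7r, -0.01 for Il2rb, 0.06 for Trbc2, 0.06 for Ltb, -0.05 for Irf1 and 0.27 for Dcn. With the block by deposited names, it was 0.08 for Areg and 0.13 for Nfkbia, and limma-trend gave 0.01 for Nfkbia. With 1 library left out, it ranged from -0.25 to 0.06 for Ly6a, from -0.06 to 0.10 for Il7r, from -0.03 to 0.21 for Id2, from -1.80 to 2.06 for Tbx21, from -0.15 to 0.29 for Il2rb, from -0.30 to 0.12 for Trbc2, from -0.36 to 0.14 for Ltb, from -0.11 to 0.13 for Irf1, from -0.19 to 0.03 for Nfkbia, from -0.09 to 0.21 for Dusp1, from -0.61 to 0.29 for Dcn and from -0.11 to 0.85 for Cpa3. Tbx21 was at its lowest without dermal Sca1+ replicate 1.

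With a biological coefficient of variation of 0.62 and 2 libraries against 3, a difference that missed the threshold is not shown to be absent. Depth limits the folds of genes at 0 in 1 group, which are bounds.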

Other observations

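Several genes outside the lists differed as much as the costimulatory receptors. They were chosen after their values were seen. Susd2, a surface protein gene, was at 84.5 and 70.5 TPM in dermal Sca1+ ILCs and at 7.56, 7.76 and 6.13 TPM in subcutaneous ILCs (log2 fold change 3.39 ± 0.19, SE, edgeR adjusted p = 2.66e-05). In CCR6+ dermal ILCs it was at 309 and 320 TPM. Jaml, an adhesion molecule by which lymphocytes bind epithelium, was at 80.8 and 128 TPM against 2.84, 6.29 and 1.95 TPM (edgeR adjusted p = 0.000805). Hlf, a transcription factor of the PAR bZIP family, was at 110 and 115 TPM against 22.1, 10.3 and 11.6 TPM (edgeR adjusted p = 0.000705). Aqp3, a channel for water and glycerol, was at 62.1 and 82 TPM against 5.99, 6.83 and 1.86 TPM (edgeR adjusted p = 0.00141), and the part of keratinocytes in this result was not tested. Igflr1, Cd101 and Crlf3 were higher too, with folds of 19, 4.63 and 2.69. The calls of these 7 genes were kept in all 13 alternatives. Mycn, a growth-promoting factor of the Myc family, was at 60.8 and 58.4 TPM against 17.6, 8.61 and 13.3 TPM (edgeR adjusted p = 0.0282), and at between 5.09 and 16.1 TPM in the other 5 libraries. The Mycn call was lost without any 1 of the 5 libraries (between 0.0689 and 0.143).

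The serine synthesis genes Phgdh, Psat1 and Psph, 3 of 5 tested, were higher in dermal Sca1+ ILCs. Phgdh, the first enzyme of the pathway, was at 99.6 and 115 TPM against 46.7, 54.5 and 48.9 TPM (edgeR adjusted p = 0.0247). Each of the 3 calls was lost without either dermal Sca1+ library, without subcutaneous replicate 1 and without subcutaneous replicate 3 (between 0.0668 and 0.198), and Psph also without subcutaneous replicate 2 (0.107). Of 8 Gimap genes, small GTPases of lymphocytes and endothelium, Gimap3, Gimap4 and Gimap6 were lower, Gimap3 not without either dermal Sca1+ library (0.138 and 0.0675) and Gimap4 not without replicate 1 of them (0.117). Gimap6 was at 56.3 and 74.9 TPM against 441, 431 and 394 TPM (edgeR adjusted p = 0.00112) and at no more than 11.5 TPM in the other 5 libraries. Of 4 haemoglobin genes, Hbb-bs and Hbb-bt had no count in the dermal Sca1+ libraries. Hbb-bs was at 1051, 403 and 741 TPM in the subcutaneous ones and at least 2440-fold lower in dermal Sca1+ ILCs (edgeR adjusted p = 0.0182). The Hbb-bs call was lost without subcutaneous replicate 1 or 3 and without either dermal Sca1+ library (between 0.0506 and 0.115). These families were also chosen after their values were seen.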
